A study of Mus musculus with 20 samples.

Results

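The Notch pathway genes described here were *Notch1*, *Notch2*, *Notch3*, *Jag1*, *Jag2*, *Dll1*, *Hes1*, *Hey1* and *Rbpj*. They were taken by symbol from a table of 24552 genes, which held all 9 of them. Bulk RNA sequencing was performed on the corneal epithelium of naïve, wild-type, female C57BL/6J (B6) mice, with no transgene and no treatment in any group. The 20 libraries formed 4 age groups of 5: young (2 to 3 months), 12-month (12 to 13 months), 18-month (18 to 19 months) and 24-month (24 to 25 months). Each library held the pooled epithelium of both corneas of 1 mouse, removed by debridement, so a library is 1 animal.

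Notch signaling passes between touching cells. A ligand of the Jagged or Delta-like family on 1 cell binds a Notch receptor on its neighbor, the receptor is cut, and its inner part enters the nucleus, where it joins the DNA-binding protein RBPJ and switches on genes of the Hes and Hey families. In stratified epithelia the pathway is known for its part in the step from basal cell to differentiating cell, and in the mouse cornea Notch1 is known as a guard of corneal identity during repair.

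No Notch pathway gene passed the test between any of the ages compared. Of the 9 genes, 8 averaged 10 normalized reads or more over the libraries and were tested, and *Hey1* did not reach that level. The normalized read count is the number of reads on a gene divided by the library's size factor, and a gene was called when its Benjamini-Hochberg adjusted p, taken over all 11288 genes tested by limma, was 0.05 or less and its change was at least 1.2-fold. Against young, 0 of 8 were called at 12 months, where 0.532% of all tested genes were called. At 18 months 0 of 8 were called, against 0.673% of all genes, and at 24 months 0 of 8, against 0.78%. With the 15 aged libraries as 1 group the count was again 0 of 8, against 1.01%, and between 24 and 12 months it was 0 of 8, against 0.195%. The F test for any difference among the 4 ages called 0 of 8, against 0.904%. At these background shares, 8 genes would hold few or no calls.

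At an unadjusted p under 0.05 the count was 0 of 8 at 12 months and 1 of 8 in each of the other 5 comparisons, while 9.56% of all tested genes passed that level at 12 months, 7.18% at 18 months, 9.97% at 24 months, 7.89% for all aged libraries, 14.7% between 24 and 12 months and 11.4% in the F test. The 1 gene was *Notch3*, except between 24 and 12 months, where it was *Notch1*. A change that misses the threshold is not shown to be absent, so the intervals of the changes are given beside the values.

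Most of the mean changes were upward in sign, none of them called. Of the tested members, 7 of 8 were higher in mean at 12 months than in young, 6 of 8 at 18 months and 7 of 8 at 24 months. With the aged libraries as 1 group it was 8 of 8. Of all tested genes, 48.3% were higher at 12 months, 49.8% at 18 months, 50.7% at 24 months and 48.7% over all aged libraries. Several members deviated from their age means in the same libraries, as described below, so the 8 signs are not separate. Against young, in the order of age, the median log2 change over the 8 genes was 0.16, 0.18 and 0.34, where the median over all tested genes was -0.01, -0.00 and 0.01. These comparisons share the young libraries, among which replicate 1 was the lowest for *Notch2*, *Notch3*, *Jag2*, *Dll1* and *Hes1*.

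**Figure D1:**
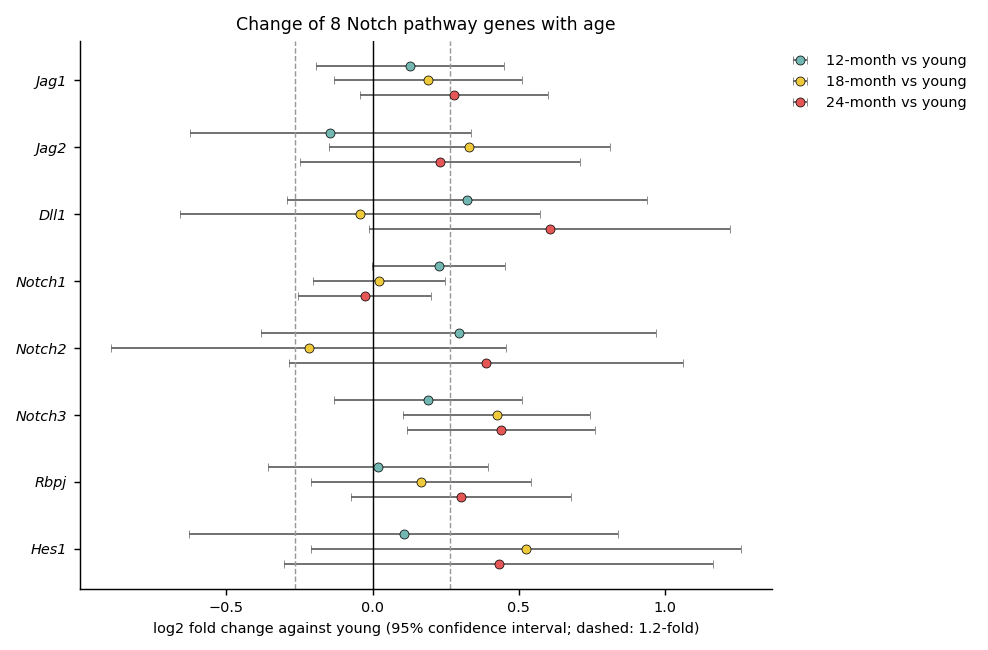
Log2 fold change against young (x axis) for the 8 tested Notch pathway genes (y axis) at 12, 18 and 24 months, with 95% confidence intervals and dashed lines at 1.2-fold. Only the *Notch3* intervals at 18 and 24 months lie wholly above 0, and neither change was called after adjustment.

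The sites the nuclear step of the pathway uses can be looked for in the members' own upstream sequence. RBPJ binds DNA at a short core, TGGGAA, and RefSeq promoter sequence of build GRCm38.p6 was at hand for 7 of the 9 members in 9 windows of 250 bases upstream of a start site, with none for *Hes1* and *Hey1*. The core was searched on both strands, as TGGGAA or TTCCCA. It was found in both windows of *Rbpj*, which overlap each other, and in none of the other 7, while 21.6% of all 32851 upstream windows held it. The longer form GTGGGAA, which contains the core, was in 5.42% of all windows. A match of these letters is a description and not a binding site. The places in *Rbpj*, each shown as 30 bases 5′ to 3′ on the plus strand with the core in capitals, are printed because they are the matches among the members. The first lies at chr5:53590185-53590214, its core 149 to 144 bases before the start site of the first window. The second lies at chr5:53590269-53590298, its core 65 to 60 bases before the same start site. Both windows lie inside the annotated span of *Rbpj* (chr5:53555779-53657445) and hold exon sequence of *Rbpj*, so they are not sequence 5′ of the whole gene.
Rbpj upstream match, farther from the start: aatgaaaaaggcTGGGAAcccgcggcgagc
Rbpj upstream match, nearer to the start: gacgctcgcattTTCCCAggacccctcctc
The upstream sequence of *Notch3*, the member with the lowest p against young, is shown for comparison. It lies on the minus strand at chr17:32166891-32167140, holds no exon of the GENCODE annotation and no core, and 68.8% of its bases are G or C.
Notch3 upstream: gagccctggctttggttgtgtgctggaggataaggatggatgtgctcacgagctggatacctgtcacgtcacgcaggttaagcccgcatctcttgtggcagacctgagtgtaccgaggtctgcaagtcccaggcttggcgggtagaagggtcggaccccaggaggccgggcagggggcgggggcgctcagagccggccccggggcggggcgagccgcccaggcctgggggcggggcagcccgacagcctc

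The libraries held 6699383 to 10762360 reads on genes, with a median of 8731333. Of the markers of the corneal epithelium (*Krt12*, *Krt5*, *Pax6*, *Aldh3a1*, *Tkt* and *Clu*), 6 of 6 were read in every age, and their summed level was 375179 to 486823 normalized reads in young and 407334 to 447725 at 24 months. Transcripts of other cells moved with age. The summed level of 10 stromal keratocyte markers was 2240 to 5704 in young and 604 to 1304 at 24 months, with 7 of 10 called lower (0.47% of all tested genes were), and that of 8 gland or tear genes was 992 to 10950 in young and 106 to 374 at 24 months, with 6 of 7 tested called lower. In bulk tissue, fewer cells of a type and less RNA per cell cannot be told apart. The part of these transcripts in the values of the Notch pathway genes was not tested.

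**Figure D2:**
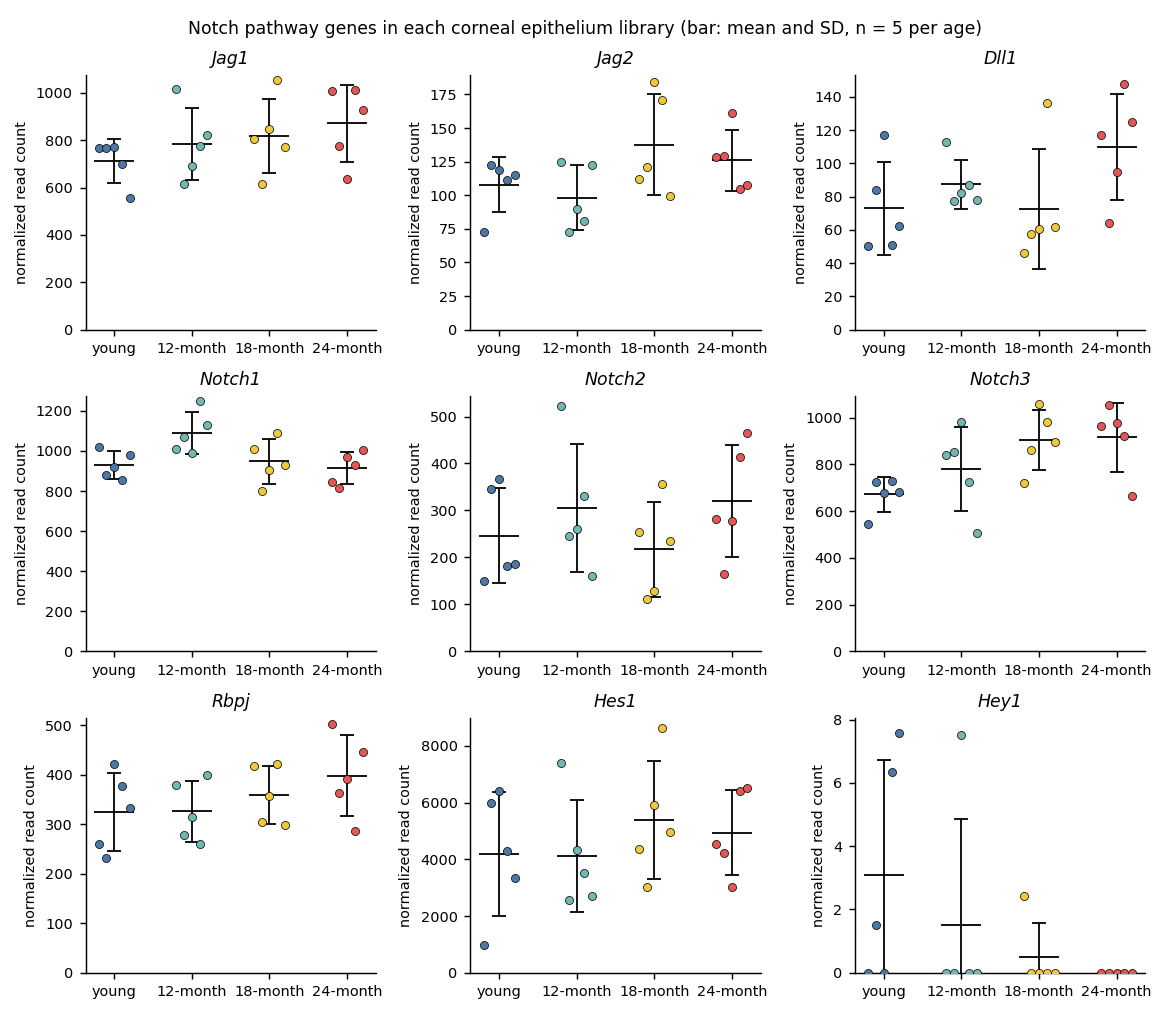
Normalized read count (y axis, from 0) of the 9 Notch pathway genes in each library, by age, with the mean and SD of 5 libraries. For every gene the libraries of any pair of ages overlap, and *Hey1* stays below 8 normalized reads.

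The libraries of each pair of ages overlapped for every gene. This held in 54 of 54 pairs (9 genes, 6 pairs of ages), while libraries did not overlap in 1.98% of tested genes for 12 months against young, 2.05% for 18 months against young, 2.81% for 24 months against young, 3.24% for 24 against 12 months, 1.13% for 18 against 12 months and 1.2% for 24 against 18 months. At these shares few or no pairs of so few genes would be apart. *Hey1* had libraries at 0 at every age, so its pairs had to overlap, and it is not among the tested genes. A two-sided exact permutation test of the mean log2 values gave a p under 0.05 in 4 of the 54. With 5 libraries against 5 the smallest p this test can give is 0.00794. The 4 pairs were *Notch3* at 18 and 24 months against young, and *Notch1* at 12 months against young and at 24 against 12 months. These p were not adjusted, and the share of all tested genes under 0.05 in this test was not computed. In the same 4 comparisons, 7.18% to 14.7% of all tested genes had an unadjusted limma p under 0.05. That is a different test and only a rough guide, and these pairs are not shown to stand out.

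Among the ligands, *Jag1* (NCBI gene 16449, GRCm38 chr2:137081451-137116520) encodes Jagged1, a membrane ligand of the Notch receptors. It read 767, 767, 773, 700 and 556 normalized counts in young replicates 1 to 5, 1016, 614, 692, 776 and 822 at 12 months, 805, 616, 846, 1053 and 772 at 18 months, and 1006, 774, 638, 1014 and 928 at 24 months. At 24 months 4 of 5 libraries lay above every young library, which 8.58% of all tested genes matched in either direction, and the lowest 24-month library lay inside the young range. The means were 713 ± 92.6, 784 ± 152, 818 ± 157 and 872 ± 163 (SD, n = 5), in the order of age. The log2 change at 24 months was 0.28, with an interval of -0.04 to 0.60 and an adjusted p of 0.582, so it was not called.

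*Jag2* (NCBI gene 16450, GRCm38 chr12:112907803-112929812) encodes Jagged2, the other Jagged ligand. It read 72.3, 122, 119, 111 and 115 normalized counts in young, 125, 72.3, 90.0, 81.2 and 122 at 12 months, 112, 121, 184, 171 and 99.6 at 18 months, and 129, 129, 161, 104 and 107 at 24 months. The single low young library was replicate 1, and both high 18-month libraries were replicates 3 and 4. The lowest mean was at 12 months, 98.2 ± 24.1, and the highest at 18 months, 138 ± 37.6, with young at 108 ± 20.3 and 24 months at 126 ± 22.6 (SD, n = 5). The libraries of all ages overlapped, and the difference between 18 and 12 months had an exact permutation p of 0.0952.

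*Dll1* (NCBI gene 13388, GRCm38 chr17:15367354-15376932) encodes Delta-like 1, a ligand of the other family. It read 50.4, 83.9, 117, 50.9 and 62.6 normalized counts in young, 113, 77.6, 82.5, 87.2 and 77.7 at 12 months, 46.3, 57.5, 60.3, 136 and 61.9 at 18 months, and 117, 64.2, 94.6, 148 and 125 at 24 months. At 18 months 4 of 5 libraries lay below every 12-month library, as for 5.42% of tested genes in either direction, while replicate 4 lay above every one of them. The log2 change of 24 months against young was 0.61, the largest of the members, with an interval of -0.01 to 1.22, an exact permutation p of 0.0714 and an adjusted limma p of 0.509. The means were 72.9 ± 28.1 in young, 87.6 ± 14.8 at 12 months, 72.4 ± 36.1 at 18 months and 110 ± 31.8 at 24 months (SD, n = 5). The annotated antisense gene *A930024N18Rik* overlaps *Dll1*, and since the strand setting of the counting was not given in the sources used here, reads of the pair cannot be told apart.

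Among the receptors, *Notch1* (NCBI gene 18128, GRCm38 chr2:26457902-26503822) varied least from library to library. It read 1019, 880, 921, 853 and 979 normalized counts in young, 1008, 1072, 989, 1252 and 1129 at 12 months, 1011, 799, 906, 1092 and 932 at 18 months, and 846, 816, 970, 929 and 1007 at 24 months. The 12-month group held the highest mean, 1090 ± 106, above 948 ± 111 at 18 months, 930 ± 68.8 in young and 914 ± 80.8 at 24 months (SD, n = 5). At 24 months 4 of 5 libraries lay below every 12-month library, as did, in either direction, 10% of tested genes. The log2 difference between 24 and 12 months was -0.25 (interval -0.48 to -0.03), with an exact permutation p of 0.0159 and an adjusted limma p of 0.286, and it was not called. From young to 12 months the difference was 0.23, with an exact permutation p of 0.0317 and an adjusted limma p of 0.522. Against young, the 24-month interval ran from -0.25 to 0.20 on the log2 scale, the narrowest of the 8 genes. The annotated antisense genes *0610009E02Rik* and *Gm13568* overlap *Notch1*.

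*Notch2* (NCBI gene 18129, GRCm38 chr3:98013538-98150367), another receptor, was spread widely within each age. It read 150, 346, 366, 181 and 187 normalized counts in young, 523, 246, 261, 332 and 161 at 12 months, 255, 110, 128, 357 and 235 at 18 months, and 282, 165, 277, 414 and 465 at 24 months. Its lowest and highest libraries thus lay at neighboring ages, 18 and 12 months. The means were 246 ± 102, 305 ± 136, 217 ± 101 and 321 ± 120 in the order of age (SD, n = 5). The 24-month change was 0.39 on the log2 scale, with an interval of -0.29 to 1.06 and an adjusted p of 0.745. The genes *Gm42819* and *Gm42820* are annotated on the same strand inside *Notch2*.

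*Notch3* (NCBI gene 18131, GRCm38 chr17:32120820-32166896), another receptor, had the lowest p of the members against young. It read 545, 725, 678, 727 and 682 normalized counts in young, 838, 852, 981, 723 and 505 at 12 months, 718, 863, 1057, 982 and 896 at 18 months, and 962, 1053, 979, 921 and 664 at 24 months. Both at 18 and at 24 months 4 of 5 libraries lay above every young library, as for 6.64% and 8.58% of all tested genes in either direction. The 24-month replicate 5, at 664, lay inside the young range, and at 12 months replicate 5 lay below it. The means were 671 ± 74.3, 780 ± 179, 903 ± 128 and 916 ± 148 in the order of age (SD, n = 5), so the young mean was the lowest and those of 18 and 24 months differed by less than their SD.

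The log2 change of *Notch3* was 0.42 ± 0.16 (SE) at 18 months, with an exact permutation p of 0.0238 and an adjusted limma p of 0.425. At 24 months it was 0.44 ± 0.16 (SE), with an interval of 0.12 to 0.76, an exact permutation p of 0.0397 and an adjusted limma p of 0.267. Neither was called. With each library left out in turn the 24-month change stayed between 0.37 and 0.55 and its adjusted p between 0.117 and 0.530. *Notch3* is also known as a receptor of mural cells, the cells around small vessels. Their 6 markers summed to 31.8 to 105 normalized reads in young and 8.70 to 50.1 at 24 months, with medians of 50.9 and 32.2, and their part in the *Notch3* values was not tested. The antisense gene *Gm17276* overlaps *Notch3*, and its reads cannot be separated from it here.

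*Notch3* was low in the libraries with many immune transcripts. As a description, deviations from the age means were correlated over the 20 libraries. Those of *Notch3* had a Pearson r of -0.82 with those of the summed immune cell markers (9 genes, among them *Ptprc*, *Cd74* and *Lyz2*). This was the largest absolute r of any tested member with a marker list or with the reads on genes. How many of all tested genes come as close was not computed. The r of *Notch3* was -0.63 with 7 proliferation markers, -0.60 with the conjunctiva markers and 0.32 with the mural cell markers. The summed immune markers were 1184 to 1987 normalized reads in young, with a median of 1471, and 793 to 1464 at 24 months, with a median of 1020. At 24 months against young 0 of 5 tested immune markers were called lower, where 0.47% of all tested genes were. Of the same markers, 0 of 5 had a positive change, and their median log2 change was -0.92. An unadjusted limma p under 0.05 was found for 2 of 5, against 9.97% of all tested genes. The part of immune transcripts in the *Notch3* values was not tested.

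*Rbpj* (NCBI gene 19664, GRCm38 chr5:53555779-53657445) encodes the DNA-binding partner of every cleaved Notch receptor. It read 260, 232, 421, 378 and 334 normalized counts in young, 380, 278, 314, 260 and 400 at 12 months, 417, 305, 357, 421 and 298 at 18 months, and 502, 364, 392, 287 and 446 at 24 months. Only 2 of 5 libraries at 24 months passed the highest young library. The means were 325 ± 79.0, 326 ± 61.8, 360 ± 58.9 and 398 ± 81.6 in the order of age (SD, n = 5), and the 24-month change was 0.30 on the log2 scale, with an interval of -0.07 to 0.68 and an adjusted p of 0.617.

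Among the targets, *Hes1* (NCBI gene 15205, GRCm38 chr16:30065357-30067796) encodes a repressor that is the best-known direct target of the pathway. It read 989, 5980, 6406, 4309 and 3336 normalized counts in young, 7398, 2562, 4341, 3533 and 2704 at 12 months, 4378, 3025, 5921, 8615 and 4966 at 18 months, and 4548, 4207, 3031, 6418 and 6515 at 24 months. Young replicate 1 was the lowest of all 20 libraries, and every age spanned more than the differences between the age means. The means were 4204 ± 2186, 4108 ± 1973, 5381 ± 2090 and 4944 ± 1500 in the order of age (SD, n = 5). The log2 change at 24 months was 0.43, with an interval of -0.30 to 1.16 and an adjusted p of 0.739, and it was -0.03 without young replicate 1. Over all aged libraries it was 0.35, and -0.10 without that library, so its sign rests on 1 library.

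*Hey1* (NCBI gene 15213, GRCm38 chr3:8663359-8667038), a target of the related Hey family, was at the limit of detection. Normalized counts were 0, 1.5, 0, 6.36 and 7.59 in young, where at most 8 reads fell on it in a library. At 12 months replicate 3 held 7 reads and at 18 months replicate 1 held 2, while the other libraries of these ages held 0, as did every library at 24 months. The reads summed to 16 over the young libraries and to 0 at 24 months. For 24 months against young the exact permutation p was 0.167. Without the filter on low values, limma gave an unadjusted p of 0.0305 and an adjusted p of 0.482, which was not called. A count of 0 allows up to 3 reads in a library. The young values were uneven, with libraries at 0 beside others at 6.36 and 7.59, and the exact permutation p was 0.167. A difference between the ages was therefore not shown at this depth, and no fold is given.

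The members differed in how much they varied between libraries of the same age. With 1 library per animal, differences between animals and between library preparations cannot be told apart. The SD of the log2 values within ages was 0.14 for *Notch1*, 0.26 for *Notch3* and for *Jag1*, 0.30 for *Rbpj*, 0.33 for *Jag2*, 0.47 for *Dll1*, 0.63 for *Notch2* and 0.72 for *Hes1*, where the median over all tested genes was 0.39. *Hes1*, *Notch2* and *Dll1* deviated from their age means in the same libraries. Over the 20 libraries the Pearson r of these deviations was 0.76 between *Notch2* and *Dll1*, 0.71 between *Notch2* and *Hes1* and 0.67 between *Dll1* and *Hes1*, and it was positive in 4 of 4 ages for each pair. Without young replicate 1 the values were 0.74, 0.76 and 0.71. *Jag1* followed them less closely, with 0.59 for *Dll1*, 0.56 for *Notch2* and 0.51 for *Hes1*, the last being 0.85 without young replicate 1. The deviations of *Notch1* and *Notch3* went opposite ways (r = -0.49, positive in 0 of 4 ages). This was the lowest r among all pairs of tested members. How many of all tested genes have an r as low with either gene was not computed.

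**Figure D3:**
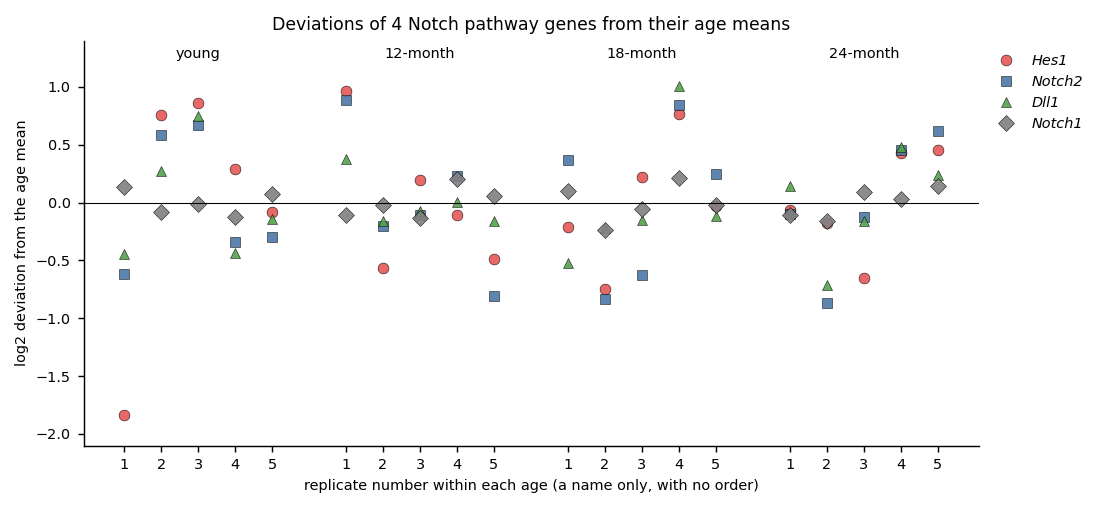
Deviation of the log2 value from the mean of its age (y axis) for *Hes1*, *Notch2*, *Dll1* and *Notch1* in each of the 20 libraries (x axis, replicate number within each age). *Hes1* lies far below in young replicate 1, all 3 of *Hes1*, *Notch2* and *Dll1* lie high in 18-month replicate 4, and *Notch1* stays near 0.

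These libraries differed along an axis shared by many genes. In a principal component analysis of the tested genes, each centered on its age means, the leading component held 15.98% of the variance, and 30.7% of tested genes had an absolute r over 0.5 with it. *Hes1* had an r of 0.91 with this component, *Notch2* 0.82, *Dll1* 0.63 and *Jag1* 0.55, whereas *Notch3* had 0.28, *Jag2* 0.20, *Rbpj* 0.17 and *Notch1* 0.08. Young replicate 1 had the lowest score, and 12-month replicate 1 the highest. The 10 genes with the most reads held 34.9% of the reads of young replicate 1, the highest share of the 20 libraries. The lowest share was 25.6%, in 24-month replicate 2. With this component taken out, the r was 0.54 between *Notch2* and *Dll1*, 0.30 between *Dll1* and *Hes1* and -0.18 between *Notch2* and *Hes1*. With the component as a covariate, an alternative added after the data were seen, the F test called *Hes1* (adjusted p 0.0449) and 5.36% of all tested genes. An r with *Hes1* as high as that of *Notch2* was found for 6.60% of tested genes, and with *Notch2* as high as that of *Hes1* for 3.13%. For the pair of *Notch2* and *Dll1*, 1.59% of tested genes were as close to *Notch2* and 0.248% as close to *Dll1*.

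The genes most like each member in these deviations came from many functions. They were chosen as the highest Pearson r over the 20 libraries among all tested genes. *Hes1* was closest to *H3f3a* (0.96) and *Rps27a* (0.96), a histone and a ribosomal protein gene. *Notch2* was closest to *4931406P16Rik* (0.91) and *Spin1* (0.89), *Dll1* to *Fat1* (0.84) and *Zfp36* (0.82), and *Jag1* to *Hmbox1* (0.87) and *Decr2* (0.85). *Notch3* was closest to *Fbrsl1* (0.83) and *Irf2bpl* (0.82), *Rbpj* to *Nol7* (0.81) and *Cdkn3* (0.73), *Jag2* to *Acp5* (0.76) and *Glis2* (0.76), and *Notch1* to *Hbegf*, which encodes a ligand of the epidermal growth factor receptor, (0.75) and *Pard6b* (0.73).

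The wider pathway was read from 7 lists of 80 further genes, of which 63 passed the filter on low values. *Sox9* and *Ccnd1* were called, both as higher than in young and both from the list of other target factors. That is 2 of 63 with the aged libraries as 1 group, where 0.478% of all tested genes were called higher. The lists were chosen with earlier results of these data known, so this share is not an independent result about the pathway. *Sox9* alone was called higher at 18 months (0.337% of all genes) and at 24 months (0.31%) and was called in the F test, and 0 of 63 were called at 12 months and between 24 and 12 months. Against young, in the order of age, the median log2 change over the 63 genes was 0.01, -0.01 and 0.02, so the upward lean of the 8 members was not seen in the median of the wider list; the difference between the lists was not tested. At an unadjusted p under 0.05 there were 8 of 63 at 12 months (12.7%, against 9.56% of all tested genes), 4 at 18 months (6.35%, against 7.18%) and 8 at 24 months (12.7%, against 9.97%). There were 14 of 63 between 24 and 12 months (22.2%, against 14.7%) and 14 in the F test (22.2%, against 11.4%), and these shares were not compared by a test.

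**Figure D4:**
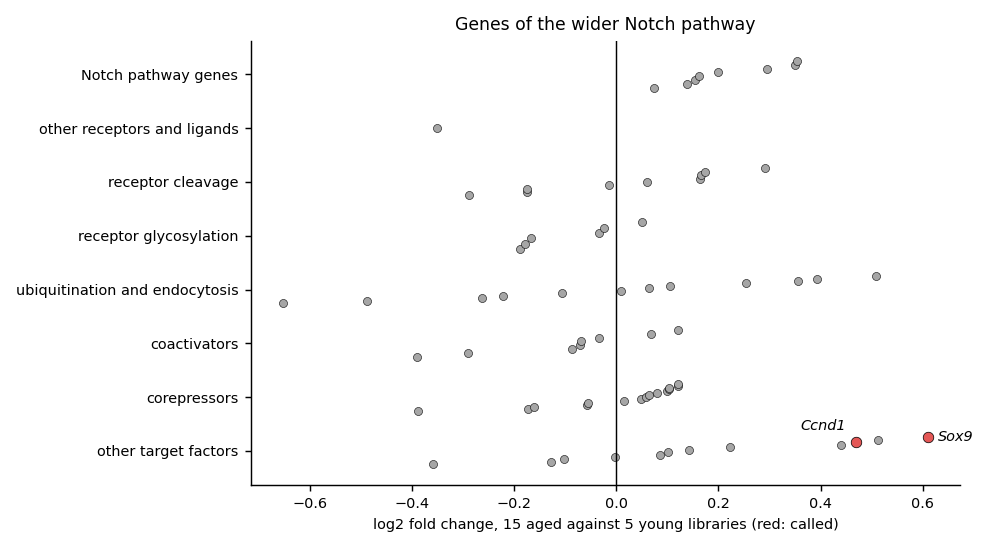
Log2 fold change of the 15 aged against the 5 young libraries (x axis) for the tested Notch pathway genes and 7 lists of the wider pathway (y axis), 1 point per gene, red where called. *Sox9* at 0.61 and *Ccnd1* at 0.47 are the called genes, and the 8 members lie between 0.07 and 0.35.

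*Sox9*, a transcription factor of epithelial progenitors that Notch is known to control in some tissues, rose with age. It read 783, 898, 704, 688 and 820 normalized counts in young, 1109, 948, 894, 1012 and 1332 at 12 months, 1314, 988, 1368, 1086 and 1159 at 18 months, and 1762, 1360, 1289, 1249 and 1143 at 24 months. Its 18-month and 24-month libraries all lay above every young library, where the groups did not overlap in 2.05% and 2.81% of tested genes, and at 12 months 4 of 5 did, as for 7.3% of tested genes in either direction. The log2 change was 0.60 ± 0.13 (SE) at 18 months, with an adjusted p of 0.0196, and 0.80 ± 0.13 (SE) at 24 months, with an adjusted p of 0.000814. At 12 months it was 0.44, with an adjusted p of 0.174. The 18-month call was lost without young replicate 3 or 4, or 18-month replicate 1 or 3, with adjusted p of 0.0651, 0.0766, 0.0740 and 0.0923, while the 24-month call held without any 1 library (adjusted p 0.000436 to 0.00583).

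*Ccnd1*, which encodes cyclin D1 of the cell cycle and is a Notch target in some cells, was called with the aged libraries as 1 group. It read 3249, 4091, 4773, 4868 and 3892 normalized counts in young, 6889, 5268, 6612, 6061 and 4561 at 12 months, 5307, 5696, 6906, 6079 and 5476 at 18 months, and 6520, 5691, 5064, 5606 and 4724 at 24 months. Its 18-month libraries lay above every young library (2.05% of tested genes did not overlap), and at 12 and 24 months 4 of 5 did, as for 7.3% and 8.58% of tested genes in either direction. The log2 change over the aged libraries was 0.47 ± 0.10 (SE), with an adjusted p of 0.0108, which became 0.0763 without young replicate 1 and 0.0514 without young replicate 5. The summed proliferation markers stood at 3607 to 7165 normalized reads in young and 4442 to 7185 at 24 months. Of these markers 0 of 7 were called, where 0.78% of all tested genes were at 24 months, so few or no calls would be held. The summed level of 6 conjunctiva markers was 28949 to 50548 normalized reads in young and 25097 to 30234 at 24 months. At 24 months 1 of 5 tested was called lower (0.47% of all tested genes were). With the aged libraries as 1 group 2 of 5 were called lower, where 1.01% of all tested genes were called in either direction. The means of *Ccnd1* were 4175 ± 667, 5878 ± 962, 5893 ± 636 and 5521 ± 685 in the order of age (SD, n = 5). Its 24-month mean thus lay below that of 12 months. Keratocyte and gland transcripts were also lower in the aged groups, in which *Sox9* and *Ccnd1* were higher than in young. The part of these transcripts in the higher *Sox9* and *Ccnd1* values was not tested.

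**Figure D5:**
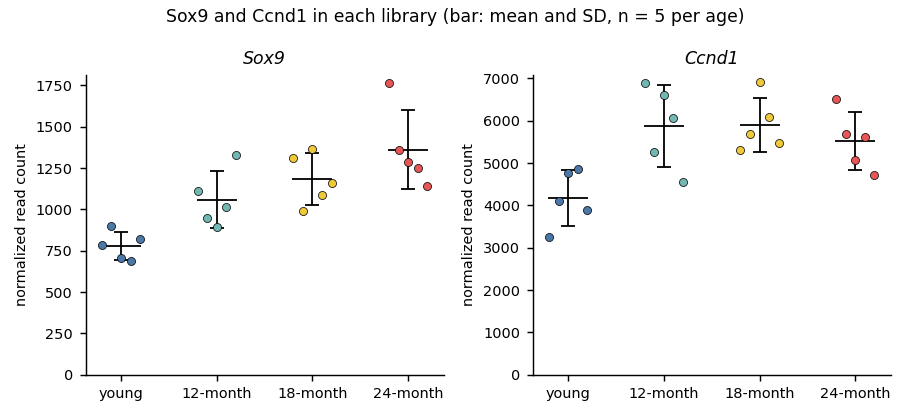
Normalized read count (y axis, from 0) of *Sox9* and *Ccnd1* in each library by age, with the mean and SD of 5 libraries. The lowest 24-month library of *Sox9*, at 1143, lies above the highest young library, at 898.

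The other steps of the pathway held no call, at shares of all tested genes of 0.195% to 1.01% over the 6 comparisons, at which lists of this size would hold few or none. Of the enzymes that cut the receptor, 9 of 10 were tested and 0 called, and the lowest F test p belonged to *Ncstn*, a subunit of the gamma-secretase complex (adjusted p 0.417), then *Psen2*, a catalytic subunit (0.609). Of the enzymes that add sugars to the receptor, 6 of 7 were tested and 0 called, led by *Xxylt1*, *Poglut1* and *Eogt* (adjusted p 0.604, 0.684 and 0.819). Of the genes for ubiquitination and endocytosis of ligand and receptor, 12 of 14 were tested and 0 called, and the lowest p were those of *Neurl1b*, *Itch* and *Mib2*, all ubiquitin ligases (adjusted p 0.283, 0.417 and 0.437).

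In the nucleus, 8 of 8 coactivator genes and 15 of 16 corepressor genes were tested and 0 of either were called, against 0.904% of all tested genes in the F test. *Ep300* and *Crebbp*, acetyltransferases of the RBPJ complex, had F test adjusted p of 0.318 and 0.421, and *Snw1* 0.479. Among corepressors *Kdm5a*, a histone demethylase, had the lowest value (0.142), with a log2 change of -0.39 ± 0.11 (SE) at 24 months that was not called (adjusted p 0.111), followed by *Cir1* (0.295) and *Tle3* (0.308). Of the other receptors and ligands 1 of 6, *Dlk2*, passed the filter on low values (F test adjusted p 0.689), and among the other target factors *Bhlhe40* followed *Sox9* and *Ccnd1* in F test p, with a log2 change of 0.76 ± 0.21 (SE) at 24 months (adjusted p 0.108).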

How the data were processed

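RNA was sequenced from 20 libraries, 5 at each of 4 ages. Per the paper's methods and the submitters' notes, the authors prepared 3′ libraries and used cutadapt, FastQC, STAR on GRCm38, HTSeq and DESeq2 size factors; versions were not given in the sources used here. The authors deposited log2 of the normalized read count plus 1. Since libraries are primed at the 3′ end and levels of different genes depend on capture, levels were compared only within a gene. Reads were recovered whole from the deposited values (100% within 0.01 of a whole number); sums were 6699383 to 10762360 per library, and 3 reads were taken as the limit that a count of 0 allows.

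The authors' count model was not refitted. limma 3.58.1 (R 4.3.3; lmFit, eBayes with trend) was fitted to the log2 values of every gene that averaged 10 normalized reads or more (11288 of 24552), the 4 ages in 1 fit, and the 15 aged against the 5 young libraries in another; the pseudocount was 1. Genes were called at an adjusted p of 0.05 and 1.2-fold, the study's thresholds. Fold changes are on the log2(count + 1) scale. The fits were tested on simulated data. Single genes were also compared by two-sided exact permutation over 252 splits (scipy 1.17.1). P-values over the members alone were not adjusted. Alternatives were quantile normalization, other filters, pseudocounts and folds, a replicate block, fits on the groups compared, voom on the recovered reads and leaving out each library. The members and lists were chosen with earlier results of these data known. All members were named, with every called gene of the wider lists, the 3 lowest F test p of each list, and the 2 genes most like each member; 1 gene that this rule names is not reported here. Genes without promoter sequence are named only.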

Additional observations from a re-analysis of the deposited data

Results flagged for a closer look

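Of 35 groups of 5 libraries checked (a gene at an age), 6 held a library whose gap to the nearest other exceeded 0.71 of the group's range (Dixon). The limit is set to flag about 1 in 20 groups of normally distributed values, which counts near 0 are not. In young mice replicate 1 was the lowest for *Notch3* (545 normalized counts, the others 678 to 727) and for *Jag2* (72.3, the others 111 to 122). *Dll1* was highest at 12 months in replicate 1 (113, the others 77.6 to 87.2) and at 18 months in replicate 4 (136, the others 46.3 to 61.9). *Hey1* was read only in replicate 3 at 12 months (7.5) and only in replicate 1 at 18 months (2.44), each against 0 in the other libraries of its age. With all others at 0 the gap equals the range by construction, so the *Hey1* flags cannot be set against that rate.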

How the results depend on the processing

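The counts of called members were recomputed under 31 alternatives, and 181 of 182 counts were 0. The exception was added after the data were seen: with the first component of the deviations as a covariate, the F test called 1 of 8, *Hes1* (adjusted p 0.0449), where 5.36% of all tested genes were called. That component was computed from the same libraries and is tied to *Hes1*, so it takes up spread by construction and the p is too small. Changes over all aged libraries, F tests of single genes, *Sox9* and *Ccnd1* under the alternatives were also added then. *Ccnd1* passed at 18 months with a pseudocount of 10 (adjusted p 0.0469) and with voom (0.0471), and against young at each age with that covariate. Its 18-month call was also gained without young replicate 3 or 4, 12-month replicate 1 or 5, or 24-month replicate 5 (adjusted p 0.0404, 0.0376, 0.0458, 0.0292 and 0.0486), and its 12-month and F test calls without 12-month replicate 5 (0.0231 and 0.0285).

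With each library left out in turn, the sign of some uncalled log2 changes turned. Ranges were -0.35 to 0.32 for *Hes1*, -0.0924 to 0.12 for *Rbpj* at 12 months against young, -0.30 to 0.14 for *Dll1* and -0.0307 to 0.0820 for *Notch1* at 18 months, -0.0635 to 0.0121 for *Notch1* and -0.0276 to 0.65 for *Hes1* at 24 months, -0.10 to 0.57 for *Hes1* over all aged libraries, and -0.11 to 0.32 for *Notch2* between 24 and 12 months. Leaving out any 1 library left 0 members called.

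Replicate numbers did not pair the libraries: over 30 same-numbered pairs the r of deviations was -0.303 to 0.159, over 0.1 in 3, and 3 of 20 libraries were closest to one of their own number. A replicate block left 0 members called in all 6 comparisons. Low reads limit *Hey1*, and the spread between libraries limits *Hes1*, *Notch2* and *Dll1*.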
